A study of Mus musculus with 4 samples.

Results

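Ubiquitin ligases whose gene symbols begin with Rnf (ring finger protein) or Trim (tripartite motif) followed by a number were examined in neutrophils with and without miR-125a. Genes were counted as members when they had an array probe set assigned to 1 symbol and a signal above the floor on at least 1 of the 4 arrays. The floor was the 60th percentile of all values, a log2 signal of 6.80 or a signal of 111. Of 129 such genes with a single-symbol probe set, 80 passed (57 Rnf and 23 Trim), among 9865 genes above the floor in the whole series. Another 49 stayed under the floor on every array. A group of 7 interferon-inducible Trim genes (Trim5, Trim12a, Trim12c, Trim21, Trim30a, Trim30d and Trim34a) was left out by the rule and is given only as a comparison. For each gene the probe set of highest mean over the arrays was used, and 75 of the 80 members were above the floor on all 4 arrays. The members just inside the floor were Trim3, with a highest log2 signal of 7.01, and Rnf225, with 7.02. The genes just outside it were Rnf157, with 6.70, and Trim6, with 6.65.

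The cells were neutrophils taken from the marrow of C57BL/6 mice aged 8 weeks with a magnetic bead kit and kept in medium with serum. The 4 groups were wild-type (miR-125a+/+) cells without stimulus, wild-type cells after 3 h with lipopolysaccharide (LPS, the Gram-negative cell wall component sensed by Toll-like receptor 4), and miR-125a-deficient cells under the same 2 conditions. RNA of 3 experiments was pooled for each group and hybridised to 1 Affymetrix array, so there is 1 array a group, differences lack a replicate check and no test was run. The labels do not settle whether the cells without LPS also spent 3 h in culture. In such bulk samples fewer cells of a type and less RNA per cell cannot be told apart. Values are deposited MAS5 signals on the log2 scale, scaled to a common trimmed mean on each array. A difference is called when it reaches 2-fold (1 on the log2 scale), and signals of different genes are not compared because probe sets differ in their response.

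Ubiquitin is passed from an activating enzyme (E1) to a conjugating enzyme (E2) and then, with the help of a ligase (E3), to its target. A RING domain binds the charged E2 and allows the transfer. In RING-between-RING ligases the ubiquitin first passes to the ligase itself. Most Trim proteins combine a RING with B-box and coiled-coil segments and a C-terminal domain that finds the target. In myeloid cells, ligases of both families act on the receptors and adaptors of the Toll-like and RIG-I-like pathways, on NF-kB signalling, on membrane receptors and on chromatin. miR-125a represses transcripts through pairing with its seed. The mature miR-125a-5p of mouse (RefSeq, GRCm38.p6, chr17:17830817-17830840, plus strand) is shown because its absence defines the knockout groups, with bases 2 to 8, the seed, in capitals.
mmu-miR-125a-5p: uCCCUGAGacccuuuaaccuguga

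The miRNA itself was not measured by these arrays, so the genotype labels were not checked on the deleted gene. Between 37.8% and 41.5% of the 45101 probe sets were above the floor per array. Pearson correlations between arrays, across probe sets, were 0.992 between genotypes without LPS and 0.991 with LPS, and 0.948 to 0.958 between arrays with and without LPS. All 13 neutrophil markers on the array were above the floor on every array, and their summed signal ranged from 325386 to 390408. None of 6 T and NK cell markers was above the floor on any array. Erythroid markers were above the floor for 5 of 8 genes in both unstimulated groups and for 0 of 8 in both LPS groups, with summed signals of 1328 in wild-type and 2330 in knockout cells before LPS and 255 and 283 after it. Summed signals of 11 monocyte and macrophage markers were 30193 and 30446 before LPS and 51978 and 50096 after it, and 9 of the 11 were above the floor in the LPS groups. Of these 9 markers, 4 were called higher and 3 lower after LPS in each genotype. These markers moved with the LPS comparison, and their part in the results below was not tested. Of 8 LPS-inducible genes used as a check, 7 were called higher in each genotype.

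In wild-type cells 5 of the 80 members were called higher after LPS (6.25%, against 7.29% of all 9507 measured genes) and 2 were called lower (2.5%, against 9.69%). In knockout cells 6 were called higher (7.5%, against 6.62% of 9578 genes) and 4 lower (5%, against 7.99%). The share of called members therefore lay near or below that of all genes. Both families were represented: 3 Rnf and 2 Trim genes were called higher and 1 of each lower in wild-type cells, and 4 Rnf and 2 Trim genes were called higher and 2 of each lower in knockout cells. The median difference over the members was -0.02 in wild-type and -0.04 in knockout cells, beside -0.03 and -0.05 over all measured genes. The median size of the difference, without its sign, was 0.45 and 0.39 for the members and 0.42 and 0.39 for all genes. The higher calls were Rnf145, Trim13, Trim14, Rnf135 and Rnf213 in both genotypes, and Rnf34 in knockout cells. These 5 shared higher calls are 6.25% of the members, against 5.57% of the 9220 genes measured in both genotypes, and 0 of 80 members were called lower in both, against 5.89%. That 0 depends on the scaling and on the probe sets used. Scaling on spiked-in poly-A controls gave 18 members lower in both, with the medians of all genes at -0.57 and -0.63. The share of all genes lower in both was not counted on that scale. Averaging probe sets gave 1 member lower in both (Rnf146), and leaving out shared or cross-hybridising ones gave 1 (Trim37). The chosen probe set of Trim37 gave -0.05 in wild-type and 0.08 in knockout cells. Its 3 other measured probe sets ranged from -1.12 to -0.12 and from -1.45 to -0.36.

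**Figure D1:**
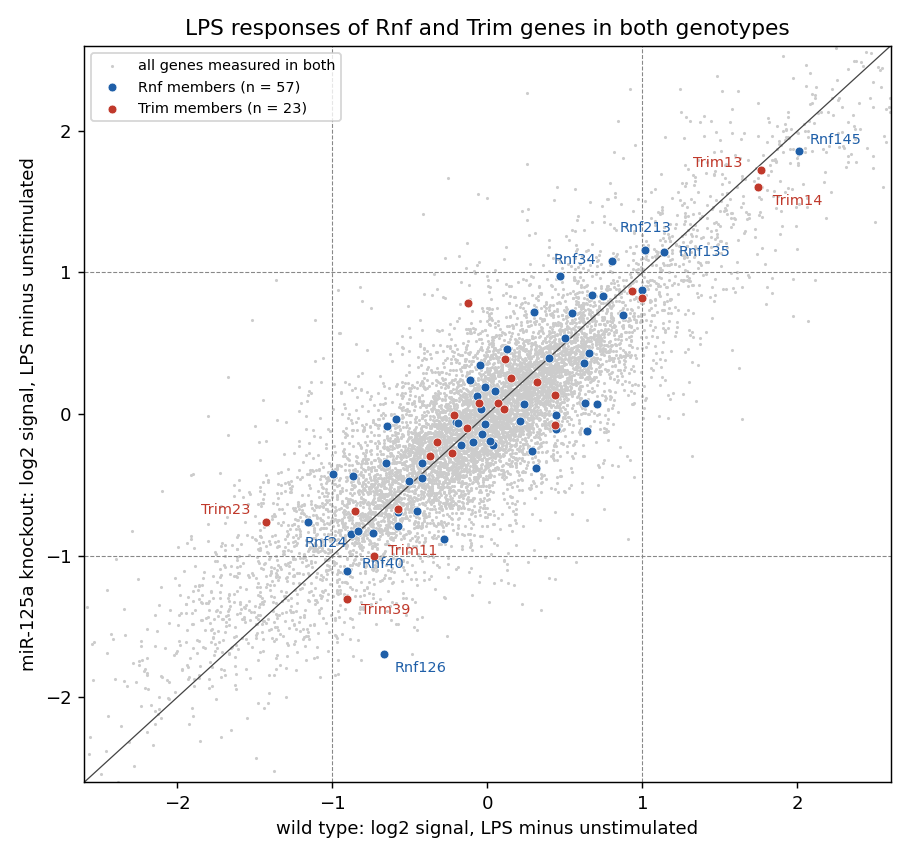
Difference in log2 signal between LPS-treated and unstimulated neutrophils in wild-type (x axis) and miR-125a knockout cells (y axis), for 57 Rnf members (blue), 23 Trim members (red) and all genes measured in both (grey, with genes beyond the axes not drawn); dashed lines mark 2-fold and the diagonal marks equal differences. Rnf145, Trim13 and Trim14 lie at the upper right in both genotypes, and Rnf126 lies below the diagonal, with -0.67 in wild-type and -1.69 in knockout cells.

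Among members of membranes and the endoplasmic reticulum, Rnf145 had the highest LPS difference of all 80 members in both genotypes. Rnf145 is a multi-pass ligase of the endoplasmic reticulum that acts in sterol metabolism. Its log2 signal was 11.40 in unstimulated and 13.41 in LPS-treated wild-type cells, and 11.33 and 13.19 in the corresponding knockout cells. Both LPS arrays lay far above both unstimulated arrays, and the genotypes lay close together. The signal was 4.03-fold higher after LPS in wild-type and 3.63-fold higher in knockout cells. Rnf145 has 1 probe set on the array, and its call was kept under every alternative processing.

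Trim13, which is anchored in the endoplasmic reticulum and takes part in the removal of misfolded proteins and in autophagy, showed the next highest difference in wild-type cells. Its log2 signal was 8.29 in unstimulated and 10.05 in LPS-treated wild-type cells, and 8.18 and 9.90 in the corresponding knockout cells. That is 3.4-fold and 3.3-fold higher after LPS, and both calls were kept under every alternative. Trim14, a Trim protein without a RING that serves as an adaptor of antiviral signalling at mitochondria, had log2 signals of 7.87 in unstimulated and 9.62 in LPS-treated wild-type cells, and 7.87 and 9.48 in the corresponding knockout cells. The unstimulated arrays were almost level, and after LPS the signal was 3.36-fold higher in wild-type and 3.05-fold higher in knockout cells. Its knockout difference was 0.98 with scaling on spiked-in poly-A controls, short of the call line. With the floor at the 75th percentile only a bound of 0.94 was left.

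Among the called members were ligases described for the cytosolic RNA sensor RIG-I (Rnf135), bacterial surfaces (Rnf213) and caspase turnover (Rnf34). Rnf135, also known as Riplet, attaches ubiquitin to RIG-I. Its log2 signal was 7.30 in unstimulated and 8.43 in LPS-treated wild-type cells, and 7.10 and 8.25 in the corresponding knockout cells. Before LPS it stood close above the floor. It was 2.2-fold and 2.21-fold higher after LPS. Rnf213 is a very large ligase with an ATPase motor that can attach ubiquitin to the lipid A part of LPS on cytosolic bacteria. Its log2 signal was 10.10 in unstimulated and 11.11 in LPS-treated wild-type cells, and 10.23 and 11.38 in the corresponding knockout cells, which is 2.02-fold and 2.23-fold higher after LPS. The wild-type difference of 1.01 lay just past the line for a call, and it was 0.31 when probe sets were averaged, with 0.97 in knockout cells. Rnf34, a ligase implicated in the turnover of initiator caspases, had log2 signals of 10.78 in unstimulated and 11.58 in LPS-treated wild-type cells, and 10.67 and 11.75 in the corresponding knockout cells. It was 1.74-fold higher in wild-type and 2.12-fold higher in knockout cells, so that 1 of its differences passed 2-fold and the other did not. With scaling on the poly-A controls the calls ended for Rnf135 (0.54 in wild-type and 0.51 in knockout cells), Rnf213 (0.42 and 0.53) and Rnf34 (0.45 in knockout cells).

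Just under 2-fold stood further ligases of immune signalling. Trim25, which activates RIG-I and also attaches ISG15, had log2 signals of 11.17 in unstimulated and 12.17 in LPS-treated wild-type cells, and 11.50 and 12.32 in the corresponding knockout cells. Its differences were 1.99-fold and 1.77-fold, and 2 further probe sets for Trim25 gave 0.92 to 1.62 in wild-type and 0.73 to 1.48 in knockout cells. Rnf19b, a RING-between-RING ligase of natural killer cells and macrophages, had log2 signals of 10.81 in unstimulated and 11.80 in LPS-treated wild-type cells, and 10.65 and 11.53 in the corresponding knockout cells. That was 1.99-fold and 1.84-fold higher after LPS, and a further probe set gave 1.42 and 0.83. For both genes every LPS array was above every unstimulated array.

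Trim35, first described in haematopoietic lineage switching, showed log2 signals of 9.80 in unstimulated and 10.74 in LPS-treated wild-type cells, and 9.91 and 10.78 in the corresponding knockout cells. Its differences were 0.94 and 0.87. The other measured probe set of Trim35 lay close to the floor and gave a bound of -0.14 in wild-type cells and 0.06 in knockout cells. Rnf114, a ligase described in T-cell activation and NF-kB control, had log2 signals of 12.04 in unstimulated and 12.78 in LPS-treated wild-type cells, and 11.90 and 12.74 in the corresponding knockout cells. The chosen probe set gave 0.75 and 0.84, while 2 others gave 1.15 to 1.20 in wild-type and 1.02 to 1.15 in knockout cells, past 2-fold. Rnf31, the catalytic subunit of the complex that builds linear ubiquitin chains in NF-kB signalling, had log2 signals of 8.89 in unstimulated and 9.56 in LPS-treated wild-type cells, and 8.63 and 9.47 in the corresponding knockout cells. Its differences of 0.68 and 0.84 stayed under 2-fold. The membrane-anchored Rnf144a had log2 signals of 12.00 in unstimulated and 12.88 in LPS-treated wild-type cells, and 12.29 and 12.99 in the corresponding knockout cells, with differences of 0.88 and 0.70. Its other probe sets ranged from 0.47 to 0.59 in wild-type and from -0.06 to 1.54 in knockout cells and so did not agree on the knockout value.

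At a lower line of 1.5-fold, 17 members were higher and 15 lower in wild-type cells, where 15.8% of all genes were higher and 21% lower. In knockout cells 16 were higher and 15 lower, where 13.8% of all genes were higher and 19.2% lower. In all, 12 members were higher in both genotypes (15%, against 10.6% of all 9220 genes) and 10 were lower in both (12.5%, against 14.9%). The 12 higher members are Rnf145, Trim13, Trim14, Rnf135, Rnf213, Rnf34, Trim25, Rnf19b, Trim35, Rnf114, Rnf144a and Rnf31. The 10 lower members are Trim39, Trim23, Rnf126, Rnf40, Rnf24, Trim11, Rnf125, Rnf146, Rnf113a1 and Trim44. Of the 28 measured members listed for innate immune and NF-kB signalling, 10 were among the 12 higher members and 4 among the 10 lower ones. The other role lists gave 0 higher and 2 lower of 16 for chromatin, transcription and DNA damage, 2 higher and 2 lower of 18 for membranes and the endoplasmic reticulum, and 0 higher and 2 lower of 16 for other signalling. Innate immune members had a median difference of 0.38 in wild-type and 0.18 in knockout cells, which became -0.21 and -0.50 with scaling on spiked-in poly-A controls, where the medians of all genes were -0.57 and -0.63. The knockout median was 0.32 with quantile normalization and 0.39 when probe sets that are shared between genes or cross-hybridise were left out. At 2-fold, 4 of the 28 were called higher and 1 lower in wild-type cells, and 5 higher and 1 lower in knockout cells. The role lists were drawn up with earlier results of these data known, so their counts are descriptions.

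**Figure D2:**
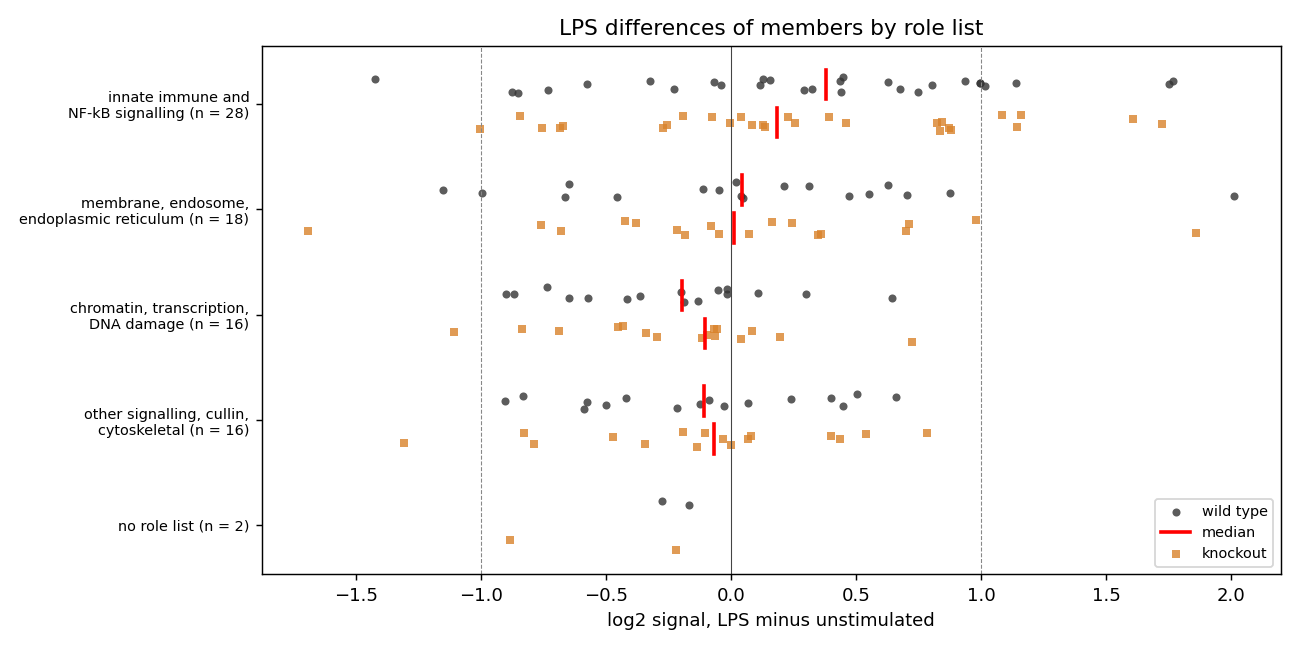
Difference in log2 signal between LPS-treated and unstimulated cells for each member, by role list (rows), in wild-type (dark circles) and knockout cells (orange squares); points are spread vertically only to separate them, red bars are medians and dashed lines mark 2-fold. The 28 innate immune members have the highest medians (0.38 and 0.18) and hold most of the points beyond 1 on the right. Theirs is also the largest list, and the lists were drawn up with earlier results of these data known.

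On the side of the lower signals, Trim23 had the largest wild-type difference. Trim23 carries a GTPase domain of the ARF type beside its RING. Its log2 signal was 9.20 in unstimulated and 7.77 in LPS-treated wild-type cells, and 9.06 and 8.30 in the corresponding knockout cells. It fell 2.68-fold in wild-type cells and was 1.69-fold lower in knockout cells, the second value under the line for a call. With the floor raised to the 75th percentile, the wild-type difference was a bound of -0.66. Rnf24, a membrane-bound RING protein, had log2 signals of 9.82 in unstimulated and 8.66 in LPS-treated wild-type cells, and 9.77 and 9.01 in the corresponding knockout cells. It fell 2.23-fold in wild-type cells and was 1.69-fold lower in knockout cells. Quantile normalization gave -0.97 for the wild-type difference, short of the call line.

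The largest fall in knockout cells was that of Rnf126, a ligase that works with the BAG6 complex in the removal of mislocalised hydrophobic proteins. Its log2 signal was 9.003 in unstimulated and 8.34 in LPS-treated wild-type cells, and 9.24 and 7.55 in the corresponding knockout cells. The LPS-treated knockout array stood alone as the lowest of the 4. The signal fell 3.23-fold in knockout cells and was 1.59-fold lower in wild-type cells. With the floor at the 75th percentile the knockout difference was a bound of -0.70. Trim39, linked to apoptosis and cell cycle control, had log2 signals of 9.44 in unstimulated and 8.53 in LPS-treated wild-type cells, and 10.02 and 8.71 in the corresponding knockout cells. It fell 2.48-fold in knockout cells and was 1.87-fold lower in wild-type cells, and the unstimulated knockout array was the highest of the 4.

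Rnf40 forms, with Rnf20, the ligase that places ubiquitin on histone H2B during transcription. Log2 signals of Rnf40 were 10.48 in unstimulated and 9.58 in LPS-treated wild-type cells, and 10.42 and 9.31 in the corresponding knockout cells. It fell 2.16-fold in knockout cells and was 1.87-fold lower in wild-type cells. Its partner Rnf20 differed less by the chosen probe set, by -0.42 and -0.45. The 2 other measured probe sets of Rnf20 ranged from -0.23 to -0.11 in wild-type cells. In knockout cells they ranged from -0.91 (a bound) to 0.46 and so did not agree. Trim11, which promotes the removal of misfolded proteins, had log2 signals of 10.46 in unstimulated and 9.72 in LPS-treated wild-type cells, and 10.36 and 9.35 in the corresponding knockout cells. It fell 2.01-fold in knockout cells, just past the line for a call, and was 1.66-fold lower in wild-type cells. Quantile normalization and median scaling gave -0.93 and -0.96 for the knockout difference.

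**Figure D3:**
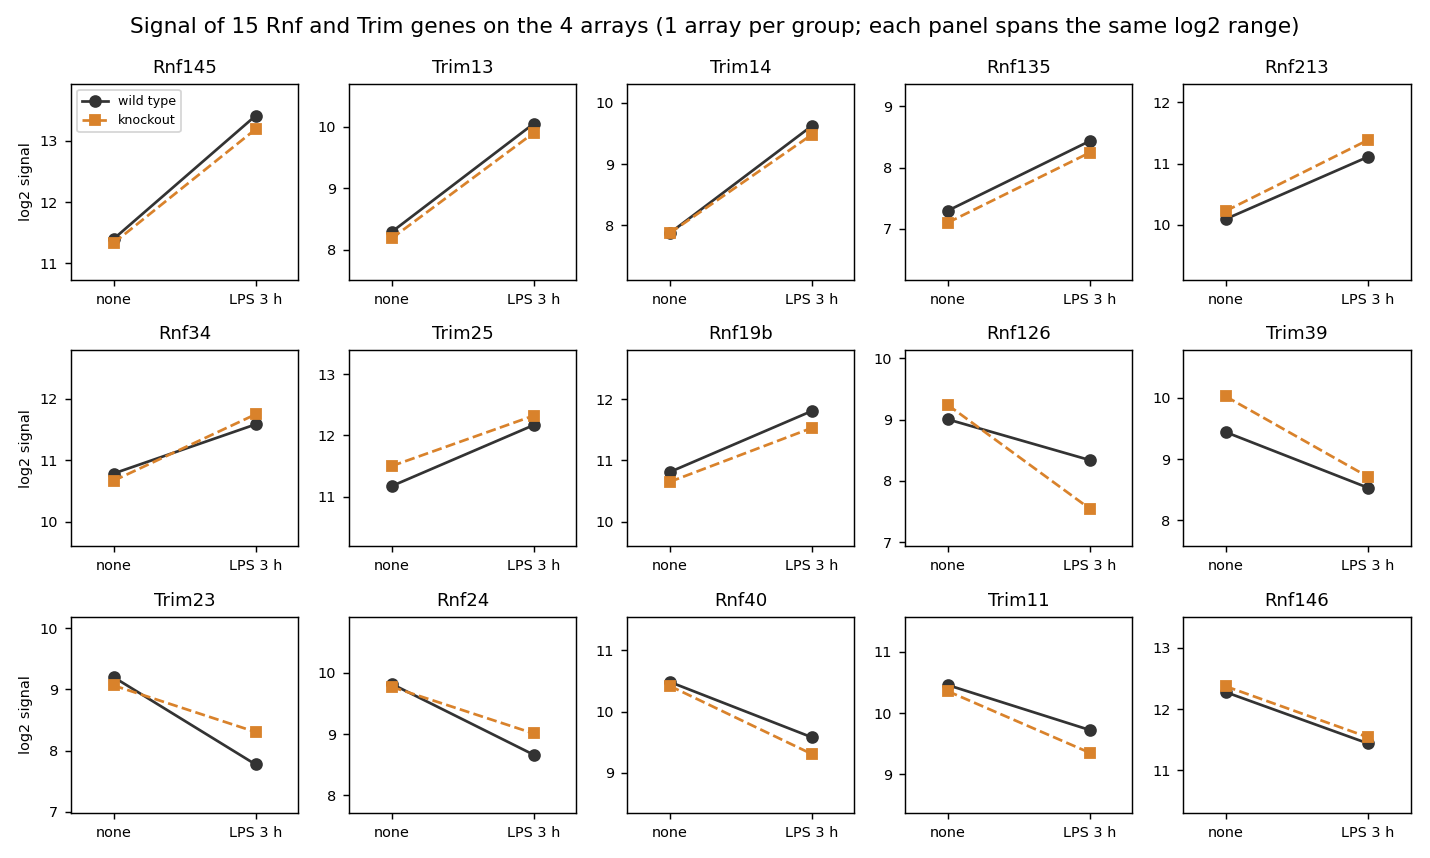
Deposited log2 signal (y axis) of 15 Rnf and Trim genes in unstimulated and LPS-treated (3 h) neutrophils (x axis), with wild type as dark circles and knockout as orange squares; each point is 1 array and lines join arrays of a genotype. The first 8 panels show genes higher after LPS and the last 7 genes lower after LPS, and the lines of the genotypes cross for Rnf126, where the knockout signal after LPS is 7.55 and the wild-type signal 8.34.

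A further 4 members lay between 1.5-fold and 2-fold lower in both genotypes. Rnf125, a ligase that marks RIG-I for degradation, had log2 signals of 10.17 in unstimulated and 9.29 in LPS-treated wild-type cells, and 9.72 and 8.87 in the corresponding knockout cells. Both LPS arrays were lower than both unstimulated arrays, with differences of -0.88 and -0.85. Rnf146, which recognises poly-ADP-ribosylated proteins such as axin, had log2 signals of 12.28 in unstimulated and 11.44 in LPS-treated wild-type cells, and 12.37 and 11.54 in the corresponding knockout cells. Its chosen probe set gave -0.84 and -0.83. The other probe sets of Rnf146 gave -2.12 (a bound) and -1.11 in wild-type and -1.52 and -0.87 in knockout cells. Of these 4 values, 3 passed 2-fold. Rnf113a1, a spliceosome-associated ligase, gave -0.74 and -0.84. Trim44, a Trim protein without a RING, gave -0.85 and -0.69. The other measured probe set of Trim44 lay close to the floor and gave a bound of -0.36 in wild-type cells and 0.05 in knockout cells. Rnf146, Rnf113a1 and the other members discussed for values under 2-fold outside the innate immune list were chosen after their values were seen.

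The regulators of RIG-I lay on different sides: Rnf135 and Trim25 were higher after LPS in both genotypes, and Rnf125 was lower. Other innate immune members stayed nearer to 0. Rnf11, a partner of the deubiquitinase A20, had differences of -0.04 and 0.04. Trim56, Trim8 and Trim26 gave -0.23, -0.32 and 0.15 in wild-type and -0.27, -0.19 and 0.25 in knockout cells. Rnf115 gave 0.12 and 0.46, Trim59 gave 0.11 and 0.39, and Rnf128 gave -0.07 and 0.13. Trim41 was lower in both, at -0.58 and -0.67. Rnf216, Trim27 and Trim45 had wild-type differences of 0.45, 0.43 and 0.44 and knockout differences of -0.01, 0.14 and -0.08. For Trim27 the 3 other measured probe sets spread from -0.90 to 0.34 in wild-type and from -1.01 (a bound) to 0.13 in knockout cells. Trim32 was under the floor on the unstimulated knockout array and gave 0.32 in wild-type cells and a bound of 0.23 in knockout cells.

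In the nucleus, the DNA damage ligases Rnf8 and Rnf168, which act one after the other at DNA breaks, gave -0.65 and -0.02 in wild-type and -0.34 and -0.07 in knockout cells. Rnf4, which recognises SUMO chains, gave -0.57 and -0.69, but its other probe set gave 0.32 and 0.31. Rnf138, a ligase of DNA end resection, gave -0.87 and -0.43, and its other probe sets ranged from -0.91 to 0.19 in wild-type and from -1.12 to -0.76 in knockout cells. Rnf2, the catalytic subunit of a polycomb complex, gave -0.02 and 0.19. The corepressors Trim24, Trim28 and Trim33 gave -0.13, 0.11 and -0.37 in wild-type and -0.10, 0.04 and -0.30 in knockout cells. Of the 16 measured members of this list, 13 had a negative difference in wild-type and 12 in knockout cells, with medians of -0.20 and -0.11. Of all measured genes, 4964 of 9507 and 5136 of 9578 were negative, with medians of -0.03 and -0.05. Rnf111, an activator of TGF-beta signalling, was the member of this list with the highest knockout difference, 0.72, with 0.30 in wild-type cells.

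Transmembrane ligases with a protease-associated domain were measured through Rnf13, Rnf128, Rnf130, Rnf149 and Rnf167. Log2 signals of Rnf130 were 13.09 in unstimulated and 13.29 in LPS-treated wild-type cells, and 13.14 and 13.09 in the corresponding knockout cells, and those of Rnf149 were 13.54 in unstimulated and 13.85 in LPS-treated wild-type cells, and 13.80 and 13.42 in the corresponding knockout cells. The order of the arrays differed between these genes, and Rnf149 had opposite signs, 0.31 in wild-type and -0.38 in knockout cells. Rnf167 gave 0.62 and 0.36, and Rnf13 gave -0.05 and 0.34. Among ligases of the endoplasmic reticulum, Rnf139, another sterol-linked ligase, gave 0.02 and -0.19, Rnf5 gave -0.12 and 0.24, and Rnf185 gave 0.70 and 0.07. Rnf26, which holds endosomes near the nucleus, gave -0.46 and -0.68. Rnf170, a ligase for activated inositol trisphosphate receptors, had log2 signals of 8.50 in unstimulated and 7.50 in LPS-treated wild-type cells, and 8.51 and 8.09 in the corresponding knockout cells. Its wild-type difference lay just short of 2-fold and its knockout difference was -0.42. Rnf121 was 1.38-fold higher in wild-type and 1.97-fold higher in knockout cells. Its other probe set gave log2 differences of 0.87 and 0.70, so the order of the genotypes was not shared.

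Rnf7, the RING partner of cullin ligases, gave -0.50 and -0.47. Family members listed as restricted to other tissues, the erythroid Trim10, the muscle genes Trim54, Trim63 and Trim72, Rnf207 and the germ cell gene Rnf17, had probe sets but stayed under the floor on all 4 arrays. With the erythroid markers named above falling under the floor after LPS, no gene of that list was available to set beside them.

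Over the 80 members the LPS differences of the genotypes, which share no array, correlated with Pearson's r of 0.872 and Spearman's rho of 0.848. Over all 9220 genes the values were 0.892 and 0.832. These correlations run across genes, which are not independent replicates. The sign was the same in both genotypes for 64 of 80 members (80%), beside 82.6% of all genes. For 75 members above the floor on every array the correlations were 0.887 and 0.863.

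The knockout was compared with the wild type at each time. None of the 80 members was called without LPS, where 1.01% of 9401 genes were called in either direction (0.351% higher and 0.66% lower). After LPS 0 of 78 measured members were called, where 1.24% of 9262 genes were called (0.615% higher and 0.626% lower). These counts leave out the 7 interferon-inducible Trim genes, of which 2 were called higher in knockout cells without LPS and 4 with LPS. The members were chosen with earlier results of these data known, so the counts of 0 are descriptions. Markers of eosinophils, basophils and mast cells moved with genotype: 4 of 5 measured were called lower in knockout cells without LPS and 2 of 4 with LPS. Their summed signals over 8 genes were 4305 in wild-type and 1992 in knockout cells without LPS, and 3673 and 1577 with LPS, and their part in the genotype differences was not tested. Differences of members without LPS ranged from -0.55, a bound for Trim36, to 0.62 for Rnf41, a ligase that targets cytokine receptors and Toll-like receptor adaptors. Log2 signals of Rnf41 were 9.91 in unstimulated and 10.53 in LPS-treated wild-type cells, and 10.53 and 10.61 in the corresponding knockout cells, with the unstimulated wild-type array the lowest of the 4. The other measured probe sets of Rnf41 gave -0.63 and 0.14 without LPS, so 1 of them lay past 1.5-fold in the opposite direction. Others of similar size were 0.58 for Trim39 and -0.50 for both Rnf8 and Rnf121. The other probe set of Rnf121 differed the opposite way, by 0.29. Trim39 and Rnf8 lie on chromosome 17, as does miR-125a, and Rnf121 lies on chromosome 7. The other members on chromosome 17, Rnf5 and Trim26, differed by -0.24 and 0.09 without LPS. With LPS, Trim39 and Rnf8 differed by 0.18 and -0.20. Whether position near the deleted gene played a part was not tested. After LPS the differences ranged from -0.79 for Rnf126 to 0.59 for Rnf170. Rnf166, which marks intracellular bacteria for autophagy, had log2 signals of 11.26 in unstimulated and 11.55 in LPS-treated wild-type cells, and 11.09 and 10.84 in the corresponding knockout cells. The LPS-treated knockout array was the lowest for Rnf166, with a difference of -0.71 from the wild type, while its other probe set differed the opposite way, by 0.51.

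At 1.5-fold, 1 member was higher (Rnf41, by its chosen probe set only) and 0 lower without LPS, where 2.83% of all genes were higher and 3% lower. After LPS 1 member was higher (Rnf170) and 2 were lower (Rnf126 and Rnf166), where 4.42% of all genes were higher and 3.23% lower. No member passed 1.5-fold in the same direction at both times. Genotype differences had the same sign at both times for 47 of 78 members (60.3%), beside 57% of 8798 genes, and the Pearson correlation between times was 0.05 for the members and 0.28 for all genes. Of the further measured probe sets of members, 59 without LPS gave 1 higher and 0 lower call, and 60 with LPS gave 0 calls. The higher call was a probe set of Rnf170 with a bound of 1.02, under the floor in unstimulated wild-type cells, whereas its chosen probe set gave 0.01. The excluded interferon-inducible Trim genes gave 2 of 7 higher calls in knockout cells without LPS and 4 of 7 with LPS. Of all genes, 0.351% and 0.615% were called higher. Among them Trim34a was higher by 1.48 and 1.20, and Trim12a by 1.13 and 1.18.

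**Figure D4:**
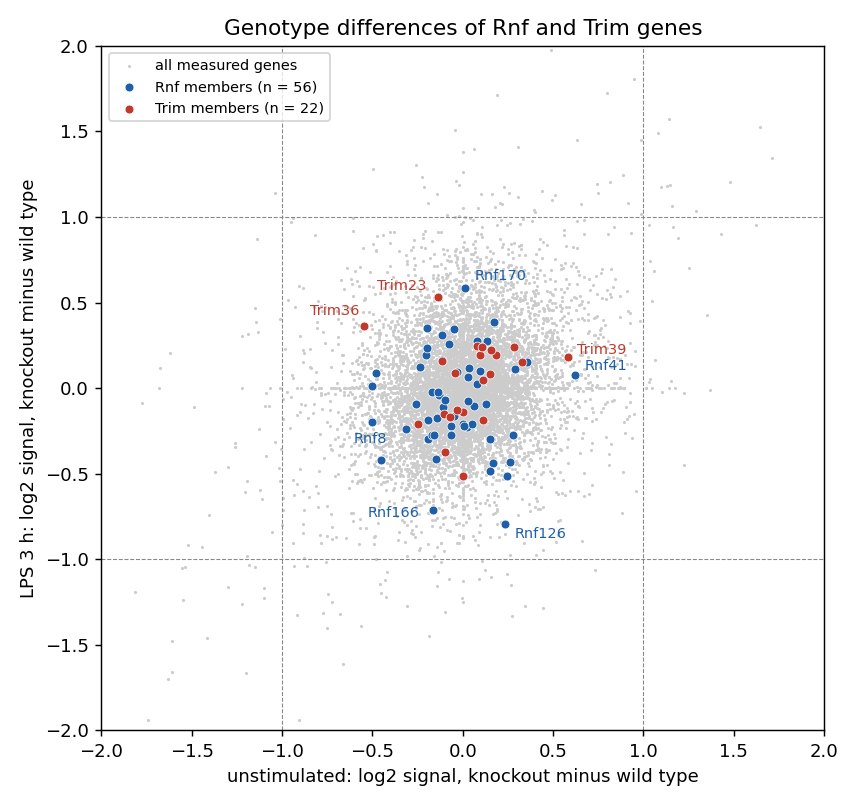
Difference in log2 signal between knockout and wild-type neutrophils without LPS (x axis) and after 3 h of LPS (y axis), for the Rnf members (blue) and Trim members (red) measured at both times, 78 in all, and for all measured genes (grey, with genes beyond the axes not drawn); dashed lines mark 2-fold. All 78 members lie inside the dashed lines, with Rnf41 at 0.62 on the x axis and Rnf126 at -0.79 on the y axis.

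The LPS response was also compared between genotypes, as the knockout difference minus the wild-type difference. Of 80 members 0 were higher and 1 was lower by 2-fold (1.25%, against 0.9% of 9220 genes lower and 1.27% higher). The member was Rnf126, at -1.03. With the floor at the 75th percentile the value for Rnf126 was -0.24, since its signals on both LPS arrays then lay under the floor. At 1.5-fold 2 members were higher and 5 lower, where 6.56% of all genes were higher and 5.33% lower. The higher members were Trim23, at 0.67, and Trim36, whose value of 0.91 rests on a signal under the floor on the unstimulated knockout array. The lower ones were Rnf126, Rnf169 at -0.76, Rnf149 at -0.69, Rnf185 at -0.63 and Rnf123 at -0.61, the last with a signal under the floor. For Rnf169, a DNA break ligase, the wild-type difference was 0.64 and the knockout difference -0.12, while its other probe set gave 0.24 and 0.30 and so no such gap. For Rnf185 the other probe set gave 0.80 and 0.07, close to 0.70 and 0.07 of the chosen one.

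Agreement between probe sets gave a second view of the same 4 RNA pools. Members had 183 probe sets in all, 25 members had 1 and 55 had several, and 41 members had another measured one. Of 58 such probe sets measured in both LPS comparisons, 41 had the same sign as the chosen one in wild-type cells and 41 in knockout cells. The median gap to the chosen probe set was 0.28 in wild-type and 0.32 in knockout cells, and the largest gaps were 1.61 and 1.53. Of the 12 members 1.5-fold higher in both genotypes, 5 had further measured probe sets, 8 in number, of which 6 had the same direction in both genotypes. Of the 10 lower members, 2 had 3 further probe sets, of which 2 had the same direction. Rnf145, Trim13, Rnf135, Rnf34, Rnf126, Rnf40, Trim39, Rnf31, Rnf125, Rnf113a1 and Trim11 rest on a single probe set.

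**Figure D5:**
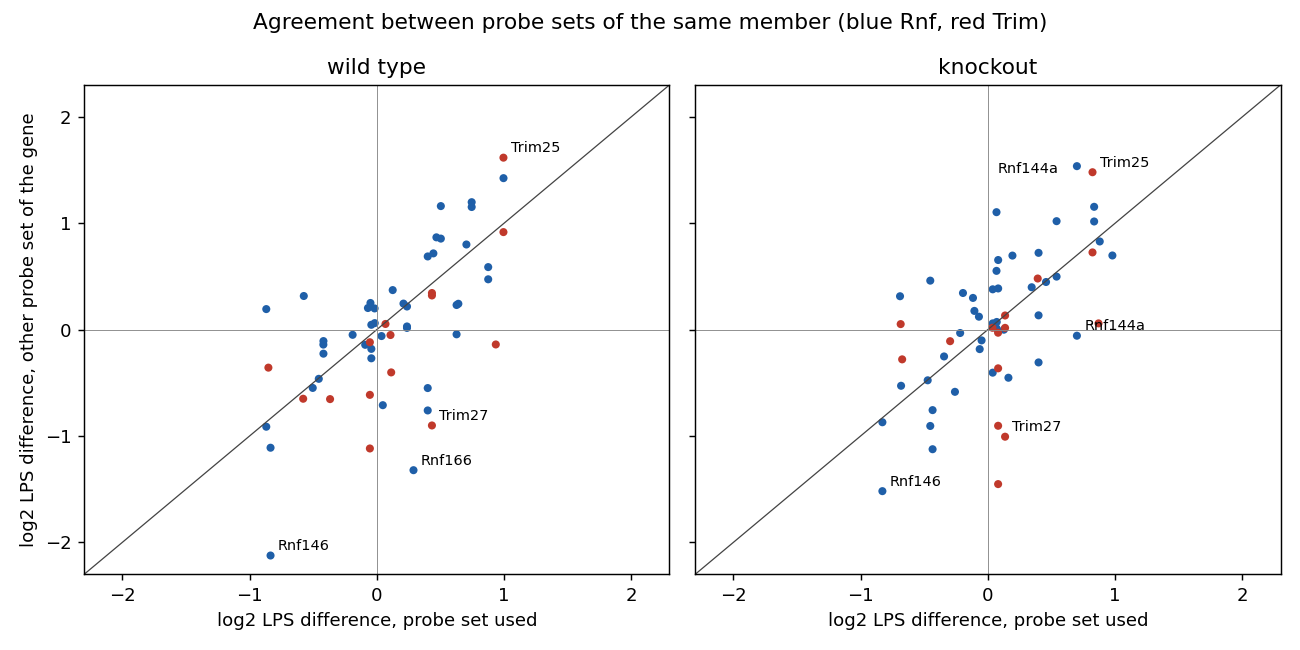
LPS difference in log2 signal of the probe set used (x axis) and of each other measured probe set of the same gene (y axis), in wild-type (left) and knockout cells (right), with Rnf genes in blue and Trim genes in red; the diagonal marks equal values. Of 58 points 41 lie on the same side of 0 on both axes in wild-type cells and 41 in knockout cells. Those of Rnf146 reach down to -2.12, a bound, on the y axis.

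Other parts of the ubiquitin pathway were read from lists of related genes. Values are log2 differences after LPS in wild-type and then knockout cells. The lists overlap with the members: Rnf31 is also in the linear ubiquitin list and Trim25 in the ISG15 list. Of 6 measured E1 enzymes 0 were called in either genotype. Of the E2 enzymes, 3 of 27 were called higher and 1 lower in wild-type cells, and 1 of 28 higher and 1 lower in knockout cells. Ube2l6, the E2 of ISG15, rose by 1.18 and 1.34, and Ube2v2, a non-catalytic E2 partner, fell by 2.24 and 1.64. The linear ubiquitin machinery had 0 of 6 calls, with medians of 0.50 and 0.35, and the ISG15 conjugation list had 2 of 5 higher in each genotype, with Usp18, which removes ISG15, at 4.34 and 4.92. Other RING ligases of immune signalling gave 4 higher and 3 lower of 26 in wild-type and 3 higher and 0 lower in knockout cells, with Birc3 at 1.78 and 1.83, Dtx3l at 1.54 and 1.77 and Traf2 at 1.29 and 1.19. Deubiquitinases of immune signalling gave 2 higher of 17 in each genotype, Tnfaip3 (A20) at 2.99 and 2.84, and Usp18. The excluded Trim genes had 2 of 7 higher after LPS in each genotype, Trim21 at 1.22 and 1.41 and Trim34a at 1.29 and 1.01. Over all genes 7.29% were called higher and 9.69% lower in wild-type cells, and 6.62% and 7.99% in knockout cells, so many of these list counts lie near the share of all genes.

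All 80 members were found in the RefSeq gene table of GRCm38.p6. Chromosome 11 held 13 of them (16.2%), beside 8.39% of 9837 matched genes above the floor. They are Rnf130, Rnf135, Rnf145, Rnf167, Rnf185, Rnf187, Rnf213, Rnf215, Trim11, Trim16, Trim25, Trim37 and Trim41, with LPS differences in both directions. The 250 bases before the transcription start were available for 62 members. A gene with several starts has several windows, on average 1.31 per member and 1.27 per gene above the floor, and was counted when any of them matched. In these windows, read on both strands, the kappaB letters (GGG, any 2 bases, TTTCC) were found in 0 of 62 members (1.88% of 8100 genes above the floor), and the interferon response letters (GAAA, any 2 bases, GAAA) in 3 (4.84%, against 3.32%). The letters TTCNNNGAA, bound by STAT factors, were found in 7 (11.3%, against 7.07%), TGACGTCA in 2 (3.23%, against 3.16%) and CCAAT in 26 (41.9%, against 40.4%). The E-box letters CACGTG were found in 5 members (8.06%, against 10.3%). Of 10 members with a window among the 12 that were 1.5-fold higher in both genotypes, 2 held CACGTG (Rnf145 and Trim25), 3 held CCAAT (Rnf31, Rnf34 and Trim13) and 0 held the kappaB or interferon response letters. A match is only a description of these letters, and a window without one says nothing of the factor.

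The windows of 4 members higher after LPS are printed from RefSeq (GRCm38.p6, plus strand, 5′ to 3′, ending at the base before the start) to show what these counts rest on. For Rnf145, which has 3 windows, and Trim13, which has 2, the window with the match is shown. Capitals mark CACGTG, at bases 230 to 225 before the start of Rnf145 and 48 to 43 before that of Trim25, and ATTGG, the reverse complement of CCAAT, at bases 11 to 7 before the start of Trim13. The window of Rnf213 holds none of the motifs searched.
Rnf145 (chr11:44518706-44518955): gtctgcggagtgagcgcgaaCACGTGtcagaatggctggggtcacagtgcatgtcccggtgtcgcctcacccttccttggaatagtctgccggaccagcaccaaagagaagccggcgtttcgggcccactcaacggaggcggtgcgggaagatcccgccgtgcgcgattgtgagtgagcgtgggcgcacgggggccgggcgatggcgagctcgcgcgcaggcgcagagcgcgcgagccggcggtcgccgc
Trim25 (chr11:88999153-88999402): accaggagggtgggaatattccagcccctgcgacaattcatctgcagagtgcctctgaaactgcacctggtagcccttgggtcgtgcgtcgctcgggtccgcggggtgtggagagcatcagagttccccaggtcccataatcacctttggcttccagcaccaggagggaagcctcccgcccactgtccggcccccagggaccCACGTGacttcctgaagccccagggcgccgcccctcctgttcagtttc
Trim13 (chr14:61597976-61598225): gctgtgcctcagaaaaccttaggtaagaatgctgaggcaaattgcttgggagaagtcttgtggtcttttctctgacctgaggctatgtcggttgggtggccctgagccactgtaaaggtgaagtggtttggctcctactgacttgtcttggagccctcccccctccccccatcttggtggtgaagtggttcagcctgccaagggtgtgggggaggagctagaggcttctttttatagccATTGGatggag
Rnf213 (chr11:119389849-119390098): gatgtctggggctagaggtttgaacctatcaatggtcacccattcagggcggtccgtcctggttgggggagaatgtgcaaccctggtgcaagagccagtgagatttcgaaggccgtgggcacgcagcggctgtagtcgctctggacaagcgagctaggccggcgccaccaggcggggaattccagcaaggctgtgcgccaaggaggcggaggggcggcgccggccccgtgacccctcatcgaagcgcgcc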

How the data were processed

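RNA of bone marrow neutrophils was measured on 4 Affymetrix arrays, 1 per group. Per probe set the authors deposited a log2 signal. According to the submitters' processing notes it came from MAS5, whose version, target and genome build no source used here gives. MAS5 reads each array alone, so dim probe sets scatter widely. The unlogged trimmed means (2% removed at each end) were 500.003 to 500.004, so a shift shared by most genes would not show. Arrays have no read depth, and their small number limits precision.

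Gene names came from the platform annotation supplied: of 45101 probe sets, 34945 had 1 gene symbol and 932 several, and 9211 were not listed. This left 18193 genes, each with its probe set of highest mean. Values under the floor (60th percentile) were set to it, so differences that touch it are bounds. The comparisons were LPS minus unstimulated in each genotype, knockout minus wild type at each time, and the difference of the LPS responses. With 1 array a group no p-value or standard deviation was computed. Counts of members are read beside the share of all genes called. Members and lists were chosen with earlier results of these data known. Named members were those called in both LPS comparisons, the 10 highest and lowest called differences and 3 largest bounds per comparison, the 5 of highest mean signal and the innate immune list; from the pathway lists, at most 4 genes called in both genotypes. Alternatives were other scalings, floors, probe set rules and a 1.5-fold line. The scripts (Python 3.11.15, pandas 2.3.3, numpy 2.4.6, matplotlib 3.10.9) were tested on simulated data.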

Additional observations from a re-analysis of the deposited data

How the results depend on the processing

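With 1 array per group and pooled RNA, small differences cannot be set against a spread between samples, and members near the floor give bounds. No paired analysis was possible because each group holds 1 array, and no array could be left out. No called member changed sign under the alternatives run. Among the scalings, the 24 poly-A controls gave the largest change: all genes then had medians of -0.57 and -0.63 in wild-type and knockout cells, with 326 higher and 2505 lower genes in wild-type and 309 and 2667 in knockout cells, against 693 and 921 and 634 and 765 as deposited. On that scale 3 of 80 members were higher and 22 lower in wild-type cells (median -0.57), beside 326 and 2505 of 9591 genes. In knockout cells 2 of 79 were higher and 20 lower (median -0.67), beside 309 and 2667 of 9826 genes. In both genotypes 2 members were higher (Rnf145 and Trim13) and 18 lower. The share of all genes lower in both was not counted on that scale. Relative to the medians of all genes the members then stood at 0.00 and -0.04. There the LPS differences of Rnf135 (0.54 and 0.51) and Rnf213 (0.42 and 0.53) were under 2-fold. So were those of Rnf34 (0.45) and Trim14 (0.98) in knockout cells. The median genotype difference without LPS was 0.0757, and 1 of 79 members had a higher response in knockout cells, beside 88 of 9348 genes.

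Quantile normalization, the floor at the 75th percentile and the mean over probe sets each gave 1 lower member in wild-type cells. Of all genes, 706 of 9598, 528 of 6983 and 833 of 8369 were then lower. Under quantile normalization the knockout median was 0.10, Rnf24 was at -0.97 in wild-type cells and Trim11 at -0.93 in knockout cells, and median scaling gave -0.96 for Trim11. The floor at the 75th percentile gave bounds of 0.94 for Trim14 and -0.70 for Rnf126 in knockout cells. Without a floor, or with it at the 50th percentile, 1 of 80 members was lower in knockout cells without LPS. Of all genes, 125 of 9401 and 105 of 11265 were. In these 2 settings 1 response was higher and 2 lower in knockout cells. Of all genes, 220 were higher and 194 lower of 9220 without a floor, and 257 and 211 of 10676 at the 50th percentile. The floor at the 75th percentile gave 0 of 65 lower responses, beside 18 of 6752 genes. The mean over probe sets gave 3 of 72, beside 93 of 8050 genes. At 1.5-fold, 17 members were higher and 15 lower in wild-type cells, 16 and 15 in knockout cells, 1 and 0 between genotypes without LPS, 1 and 2 with LPS, and 2 and 5 between responses. The cause was not tested beyond how each alternative is built.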
